A study of Mus musculus with 12 samples.

Results

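Translation initiation factors are the proteins that bring the ribosome, the initiator transfer RNA and a messenger RNA together at a start codon. The genes described here were taken by name: every listed gene whose symbol begins with Eif and a digit from 1 to 6, except Eif4ebp1 and Eif2ak2, was a member. This gave 58 of the 17203 genes listed for mouse CD4+ T cells. Of the 58, 51 were protein-coding genes and 5 were processed pseudogenes in the GENCODE M21 annotation of the mm10 build, and the other two, Eif4a3l1 and Eif4a3l2, were not found there by symbol. The rule itself used no measured value, but it was set with earlier results of these data known.

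In initiation, eIF2 carries the initiator transfer RNA to the small ribosomal subunit in a GTP-bound state, and eIF2B reloads eIF2 with GTP. The kinases of eIF2 block that reloading under stress by phosphorylating its alpha subunit. The many-subunit complex eIF3 holds the preinitiation complex together, while eIF4F, made of the cap-binding protein eIF4E, the helicase eIF4A and the scaffold eIF4G, recruits the messenger RNA and is held back by the 4E-binding proteins. T cells that leave rest after antigen receptor engagement are known for a large rise in protein synthesis.

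RNA of primary CD4+ T cells from C57BL/6 mice was sequenced in 12 libraries, which fell into 4 groups of 3. The Unstimulated cells were freshly isolated and received no activating antibody. CD3 cells were cultured for 72 h with plate-bound anti-CD3, which engages the T cell receptor complex, and CD3_CD28 cells for 72 h with plate-bound anti-CD3 and soluble anti-CD28, an antibody to the costimulatory receptor CD28. CD3_CD28_ICOS cells were given anti-CD3, anti-CD28 and an antibody to the costimulatory receptor ICOS for 72 h, all of them soluble, so both the added antibody and the soluble anti-CD3 set it apart from CD3_CD28. All groups came from the same mouse strain, with no allele or transgene named. The design text speaks of transduced cells, but no label names a transduction, and whether the 3 libraries of a group are separate mice or cultures is not stated, so the p-values speak only of library-to-library spread, part of which may be technical. Because the unstimulated cells were not cultured, culture time and stimulation cannot be told apart in comparisons with them.

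Levels are in CPM, reads of a gene scaled to a library total of 1e+06. Depth per library, estimated from the steps between low values, was 11.4 to 37.5 in units of 1e+06 reads, and 1 ribosomal RNA gene took 11.8% of CD3_CD28 replicate 1 against 1.26 to 3.20% elsewhere. The 7 T cell markers summed to 4520 to 4940 CPM in Unstimulated libraries, 2740 to 3180 in CD3 libraries, 2680 to 3090 in CD3_CD28 libraries and 3970 to 4410 in CD3_CD28_ICOS. The 4 B cell markers summed to 74.4 to 134 CPM in Unstimulated libraries, 166 to 354 in CD3 libraries, 5.50 to 7.87 in CD3_CD28 libraries and 127 to 371 in CD3_CD28_ICOS. Unstimulated libraries also held 116 to 279 CPM of 4 myeloid markers and 180 to 931 CPM of 4 pancreatic enzyme genes, against at most 11.6 and 0.965 CPM in stimulated libraries. Mki67, a gene of dividing cells, stood at 25.9 to 52.6 CPM in Unstimulated libraries, 1630 to 1680 in CD3 libraries, 609 to 1060 in CD3_CD28 libraries and 955 to 1410 in CD3_CD28_ICOS. The part of these other cells and of division in the results below was not tested, and in such bulk samples fewer cells of a type and less RNA per cell cannot be told apart.

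Most tested initiation factor genes rose with CD3 and with CD3_CD28 against Unstimulated, and 27 of 56 rose with the soluble ICOS combination. A gene was tested where it reached 10 CPM in at least 3 libraries, which 56 of the 58 members did; Eif4a3l1 and Eif3s6-ps1 did not. Differences were tested with limma on log2(CPM + 1) over 9826 genes, and a gene was called at an adjusted p under 0.05. With CD3, 37 of the 56 tested members rose and 4 fell, where 43.6% of all tested genes rose and 26.3% fell. With CD3_CD28, 36 rose and 10 fell, against 36.1% and 39.1% of all tested genes. With CD3_CD28_ICOS, 27 rose and 9 fell, against 35.6% and 23.7%. The median log2 fold change of members was 0.37 with CD3, 0.38 with CD3_CD28 and 0.10 with CD3_CD28_ICOS, beside 0.18, -0.04 and 0.08 over all tested genes. Calls in either direction covered 69.8%, 75.2% and 59.4% of all tested genes in the 3 comparisons. With CD3_CD28_ICOS the members' median was -0.01 under quantile normalization and 0.01 under the median of ratios. These comparisons share the same 3 unstimulated libraries.

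The group with the highest mean was CD3 for 28 of the 56 members, CD3_CD28 for 19, CD3_CD28_ICOS for 6 and Unstimulated for 3. The lowest mean was in Unstimulated for 29, in CD3_CD28_ICOS for 16, in CD3_CD28 for 9 and in CD3 for 2. These orders were not counted over all tested genes, so they are not shown to be particular to the members. As deposited, 45.7% of all tested genes fell from CD3 to CD3_CD28. The median of ratios moved the median of all tested genes there by 0.24 on the log2 scale. Within groups the spread was small in CD3, with a median coefficient of variation of 4.30% over the members, and largest in CD3_CD28_ICOS, at 11.0%. In that group replicate 1 was the highest library for 34 of the 56 members. The spread and this count were not computed over all tested genes. The counts of calls moved with the scaling of the libraries. After scaling by the median of ratios, the split was 27 higher and 6 lower with CD3, where 36.8% of all tested genes rose and 34.3% fell. It was 38 and 9 with CD3_CD28, against 41.1% and 35.7%. With CD3_CD28_ICOS it was 22 and 18, against 31.5% and 32.3%, so the share that fell was near that of all tested genes. Quantile normalization gave 24 and 17 for CD3_CD28_ICOS, against 27.8% and 35.5%. The median of ratios moved the median of all tested genes by -0.15 with CD3 and -0.10 with CD3_CD28_ICOS on the log2 scale, and quantile normalization moved it by -0.25 and -0.16. Leaving out 1 library at a time, the number that fell with CD3_CD28_ICOS was 17 without its replicate 1, and 5 without its replicate 2 or its replicate 3. Shares of all tested genes with libraries left out were not computed.

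**Figure D1:**
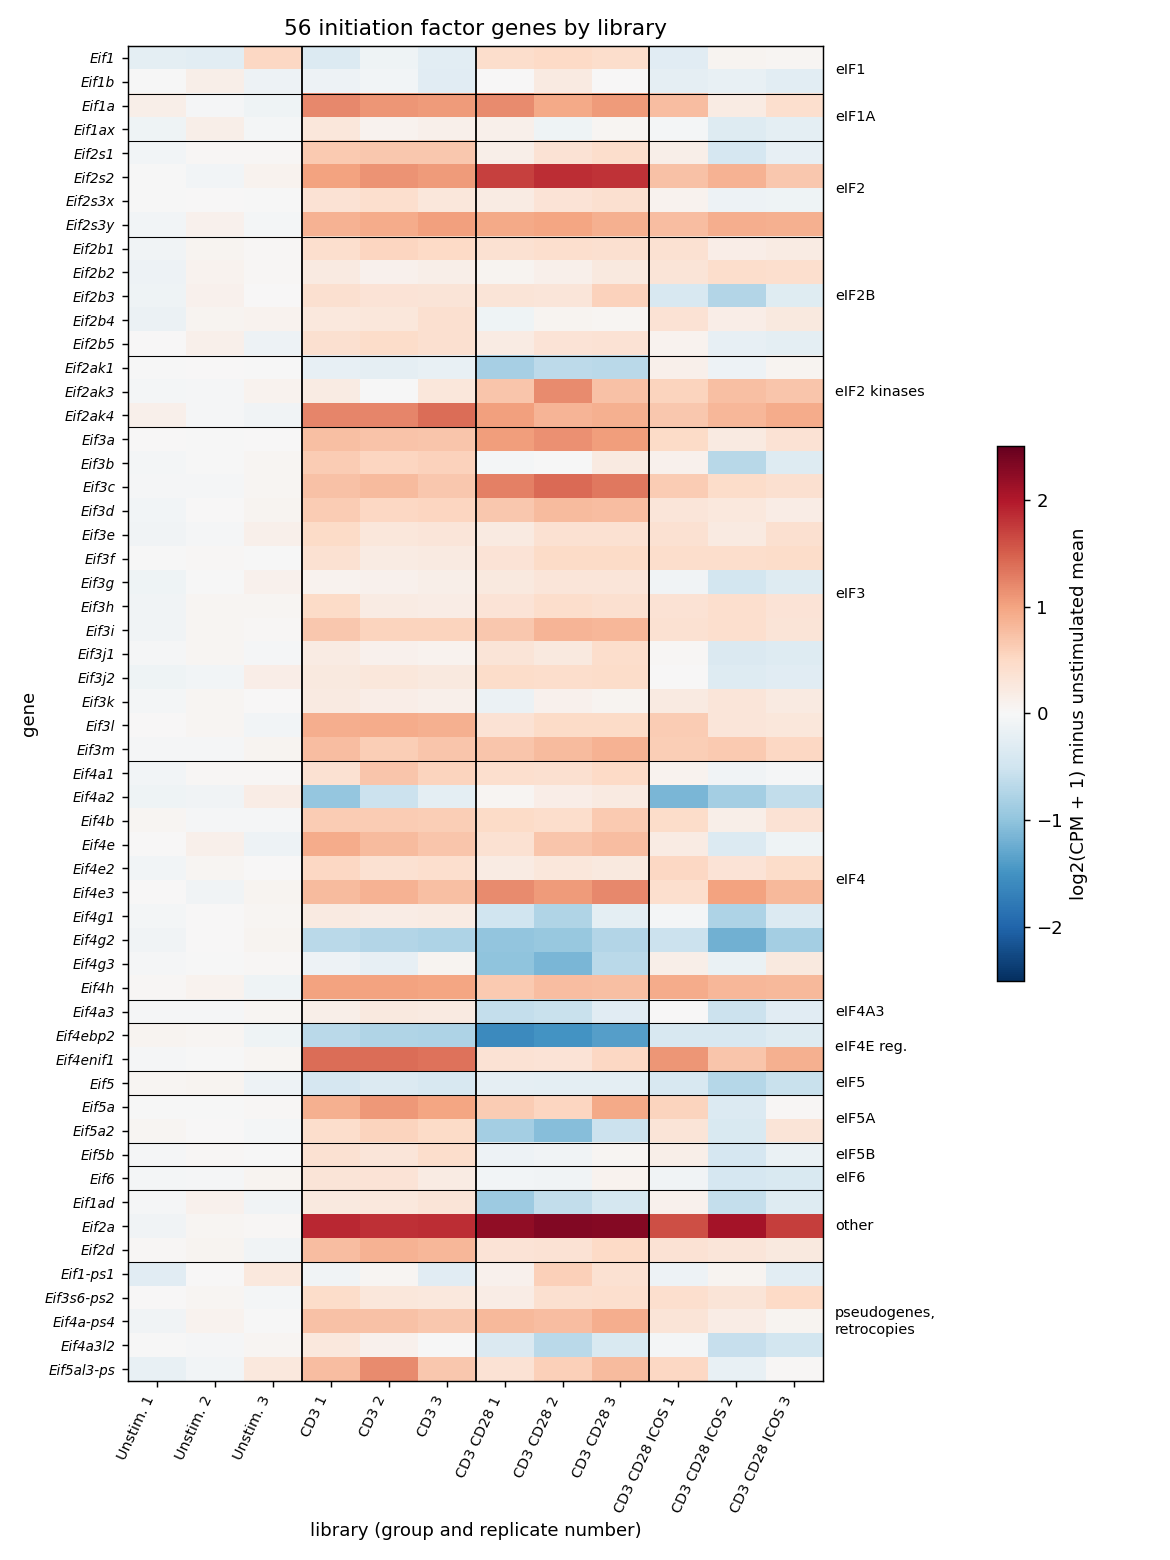
Heat map of the 56 tested members (rows, grouped by complex) in the 12 libraries (columns, by group and replicate number); colour is log2(CPM + 1) minus the mean of the 3 unstimulated libraries. Eif2a and Eif2s2 are the reddest rows in the CD3_CD28 libraries, at log2 differences of 2.28 and 1.79, and Eif4ebp2 is the bluest, at -1.49.

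Summed over their genes, eIF2 and eIF3 were higher as deposited in all 9 stimulated libraries than in any unstimulated one, while eIF4 was not. Under the median of ratios the eIF2 sum of CD3_CD28_ICOS replicate 3 was 331 CPM, below Unstimulated replicate 3 at 341. These sums are descriptions, without a test. The 4 eIF2 genes summed to 310.3, 321 and 321 CPM in the unstimulated libraries, 485, 504 and 487 in CD3, 487, 539 and 544 in CD3_CD28 and 393, 355 and 355 in CD3_CD28_ICOS. The CD3 and CD3_CD28 libraries overlapped, through CD3_CD28 replicate 1, and the ICOS libraries lay between them and the unstimulated ones. With the ribosomal RNA gene left out the CD3 libraries lay at 492 to 512 CPM and the CD3_CD28 libraries at 547 to 559, without overlap. The 14 eIF3 genes summed to 3123 ± 77.0 CPM (SD, n = 3) in Unstimulated, 4458 ± 164 in CD3, 4985 ± 221 in CD3_CD28 and 3863 ± 211 in CD3_CD28_ICOS, and no groups overlapped. The 5 eIF2B genes moved less and stood at 197 ± 12.3 CPM in Unstimulated, 252 ± 1.54 in CD3, 235 ± 12.5 in CD3_CD28 and 215 ± 12.3 in CD3_CD28_ICOS. The 10 eIF4 genes summed to 3586 ± 105 CPM in Unstimulated, 3748 ± 16.8 in CD3, 3263 ± 274 in CD3_CD28 and 3158 ± 426 in CD3_CD28_ICOS, the last with libraries from 2704 to 3549 CPM. With CD3 its mean sum was 1.045 times that of Unstimulated as deposited and 0.938 times under the median of ratios, so that direction depended on the scaling. The 10 eIF4 genes leave out Eif4a-ps4, a processed pseudogene whose reads can hardly be separated from those of Eif4a1. Its means were 491 CPM in Unstimulated, 805 in CD3, 873 in CD3_CD28 and 562 in CD3_CD28_ICOS. The eIF4 sums and their contrast with eIF2 and eIF3 thus depend on that split of reads.

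**Figure D2:**
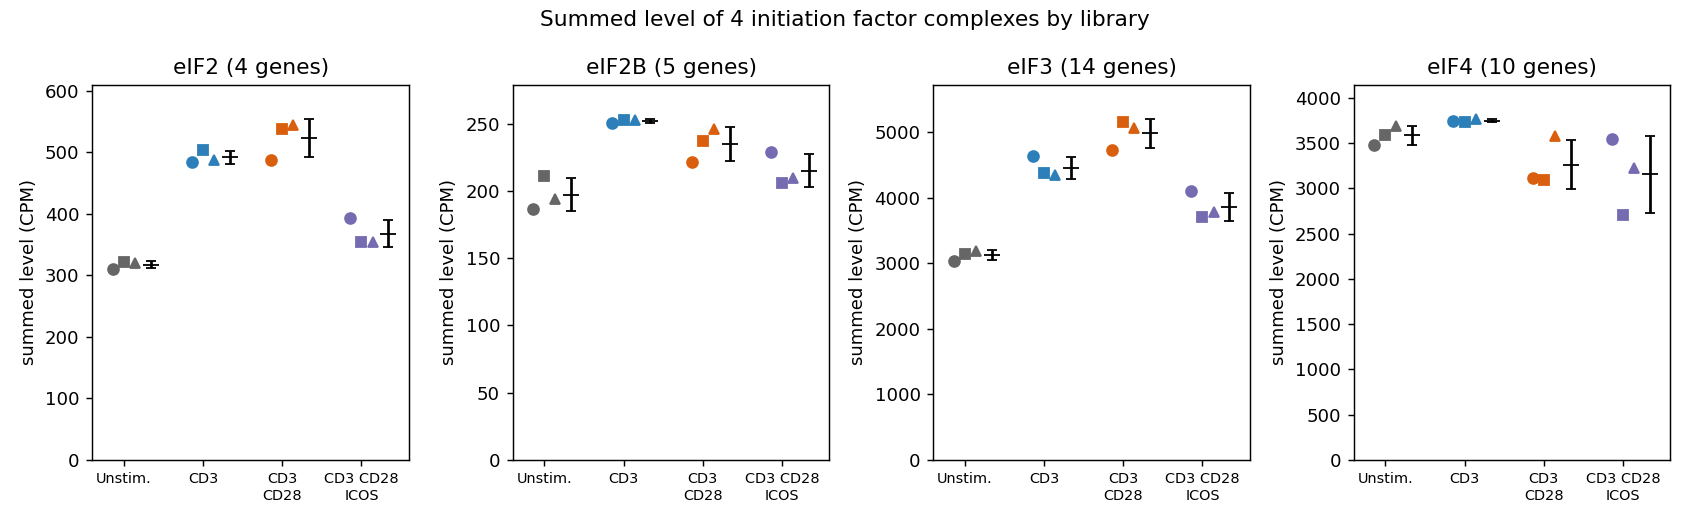
Summed CPM of the eIF2, eIF2B, eIF3 and eIF4 genes (vertical axes, from 0) in the 4 groups (horizontal axis); circles, squares and triangles are replicates 1, 2 and 3, and the black bar is the mean ± SD. eIF2 and eIF3 rise from 317 and 3123 CPM in Unstimulated to 523 and 4985 in CD3_CD28, while eIF4 goes from 3586 to 3263. The eIF4 sum leaves out the reads given to Eif4a-ps4, which can hardly be separated from those of Eif4a1.

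All 4 genes of eIF2 rose with CD3 and with CD3_CD28, and 2 of them, Eif2s2 and Eif2s3y, rose with CD3_CD28_ICOS. The shares of all tested genes that rose were 43.6%, 36.1% and 35.6% in these comparisons. Eif2s2, which encodes the beta subunit, stood at 44.3, 42.6 and 47.9 CPM in Unstimulated, 91.3, 98.9 and 95.6 in CD3, 148, 163 and 161 in CD3_CD28 and 75.6, 82.9 and 72.3 in CD3_CD28_ICOS. Its 4 groups did not overlap, with CD3_CD28 highest. It was 2.10-fold higher with CD3 (log2 fold change 1.07 ± 0.08, SE), 3.45-fold with CD3_CD28 and 1.70-fold with CD3_CD28_ICOS, and limma's adjusted p was at most 3.73e-06. Between stimulations, Eif2s2 rose from CD3 to CD3_CD28 by a log2 fold change of 0.72 ± 0.08 and was lower by 1.02 ± 0.08 in CD3_CD28_ICOS than in CD3_CD28. The alpha subunit gene Eif2s1, whose product is the target of the eIF2 kinases, was at 69.6, 74.5 and 74.2 CPM in Unstimulated, 115, 116 and 116 in CD3, 80.6, 93.4 and 99.0 in CD3_CD28 and 80.1, 54.1 and 62.7 in CD3_CD28_ICOS. It was highest in CD3, and the ICOS libraries spanned the unstimulated ones (log2 fold change -0.16 ± 0.12, limma adjusted p = 0.263). Its rise with CD3_CD28 had a limma adjusted p of 0.0306, which passed the threshold no longer without Unstimulated replicate 1 (0.0877) or 2 (0.0523), or CD3_CD28 replicate 2 (0.078) or 3 (0.114).

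The gamma subunit has an X-linked and a Y-linked gene, and they differed in how far they moved. Eif2s3x was at 161, 164 and 163 CPM in Unstimulated, 209, 217 and 199 in CD3, 187, 208 and 215 in CD3_CD28 and 174, 148 and 150.3 in CD3_CD28_ICOS. Eif2s3y was at 35.5, 39.8 and 36.0 CPM in Unstimulated, 69.0, 71.7 and 76.5 in CD3, 72.1, 74.0 and 69.1 in CD3_CD28 and 63.6, 69.9 and 69.1 in CD3_CD28_ICOS, so the Y-linked copy was read in all 12 libraries. The Y-linked gene rose with each stimulation, by log2 fold changes of 0.95 ± 0.08, 0.93 ± 0.08 and 0.85 ± 0.08, while the X-linked gene rose by 0.36 ± 0.08 with CD3 and 0.32 ± 0.08 with CD3_CD28 and did not pass the test with CD3_CD28_ICOS (-0.05 ± 0.08, adjusted p = 0.622). The share of male cells in each group, on which the level of a Y-linked gene also depends, was not tested.

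Of the 5 genes of eIF2B, the exchange factor of eIF2, 4 rose with CD3, 3 with CD3_CD28 and 3 with CD3_CD28_ICOS, where 1 fell. In these comparisons 43.6%, 36.1% and 35.6% of all tested genes rose, and 23.7% fell in the last. In the authors' deposited comparisons with Unstimulated, no eIF2B gene had a false discovery rate under 0.05. The lowest was 0.137, for Eif2b5 with CD3. There 26.0%, 23.6% and 19.4% of all tested genes were higher. The eIF2B counts leaned on single libraries and on the scaling. With CD3, 2 rose without Unstimulated replicate 1 or CD3 replicate 3 and under quantile normalization or the median of ratios. With CD3_CD28, 1 rose without CD3_CD28 replicate 3. With CD3_CD28_ICOS, 1 rose without Unstimulated replicate 1 or CD3_CD28_ICOS replicate 1 and under both scalings. Under quantile normalization and the median of ratios, 31.7% and 36.8% of all tested genes rose with CD3, and 27.8% and 31.5% with CD3_CD28_ICOS. Eif2b5, the catalytic epsilon subunit, stood at 70.2, 75.8 and 63.3 CPM in Unstimulated, 92.0, 96.1 and 92.6 in CD3, 80.1, 88.7 and 90.1 in CD3_CD28 and 74.2, 60.4 and 58.7 in CD3_CD28_ICOS. The CD3 libraries were highest and did not overlap the others; the rise with CD3 was 0.42 ± 0.10 on the log2 scale (adjusted p = 0.00211, limma), and CD3_CD28_ICOS was lower than CD3 by 0.54 ± 0.10. Eif2b1, the alpha subunit, rose by 0.49 ± 0.09 with CD3 and 0.40 ± 0.09 with CD3_CD28. Eif2b3, the gamma subunit, went the other way with the ICOS combination, from 14.6, 17.1 and 15.9 CPM in Unstimulated to 11.7, 9.16 and 12.7. These groups did not overlap, and the fall was 0.47 ± 0.13 on the log2 scale (adjusted p = 0.00637). Eif2b2, the beta subunit, was highest with the ICOS combination, at 61.3, 65.9 and 64.9 CPM against 44.6, 51.8 and 49.4 in Unstimulated (0.39 ± 0.09, adjusted p = 0.00143).

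The 3 eIF2 kinase genes among the members followed different patterns. Eif2ak4, which encodes GCN2, the sensor of amino acid shortage, was at 18.8, 16.6 and 15.9 CPM in Unstimulated, 41.1, 41.0 and 46.8 in CD3, 35.9, 31.3 and 32.3 in CD3_CD28 and 27.8, 31.1 and 33.3 in CD3_CD28_ICOS. All stimulated libraries were above all unstimulated ones, and CD3 was highest, 2.43-fold above Unstimulated (adjusted p = 1.32e-07). Eif2ak3, the gene of the endoplasmic reticulum kinase PERK, was at 39.2, 40.1 and 43.2 CPM in Unstimulated and 47.2, 40.5 and 49.9 in CD3, which overlapped, and at 66.3, 94.2 and 68.4 in CD3_CD28 and 60.6, 69.2 and 66.7 in CD3_CD28_ICOS. It rose by 0.87 ± 0.13 with CD3_CD28 and by 0.67 ± 0.13 with CD3_CD28_ICOS on the log2 scale. Eif2ak1, the gene of the heme-regulated kinase HRI, was at 96.8, 97.3 and 97.0 CPM in Unstimulated and 54.4, 61.6 and 60.5 in CD3_CD28, the lowest group by a clear gap. It fell by 0.71 ± 0.09 with CD3_CD28 (adjusted p = 3.95e-06), while with CD3_CD28_ICOS it was at 107, 88.8 and 102 CPM (0.03 ± 0.09, adjusted p = 0.789).

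The member with the largest rise over unstimulated cells was Eif2a, which encodes eIF2A, a factor distinct from eIF2. It stood at 51.2, 56.8 and 55.9 CPM in Unstimulated, 205, 196 and 199 in CD3, 258, 274 and 273 in CD3_CD28 and 169, 233 and 182 in CD3_CD28_ICOS. Every stimulated library was far above every unstimulated one, and CD3_CD28 was above the rest. Eif2a was 3.61-fold higher with CD3 (log2 fold change 1.85 ± 0.10), 4.85-fold with CD3_CD28 (2.28 ± 0.10) and 3.49-fold with CD3_CD28_ICOS (1.80 ± 0.10), with limma's adjusted p at most 9.07e-09. Eif2d, whose product can deliver transfer RNA outside the eIF2 route, was at 40.5, 41.3 and 37.0 CPM in Unstimulated and 68.1, 73.0 and 70.8 in CD3 and rose by 0.82 ± 0.08, with smaller rises of 0.39 ± 0.08 and 0.31 ± 0.08 in the other stimulations.

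Among the 14 eIF3 genes, 11 rose with CD3, 12 with CD3_CD28 and 10 with CD3_CD28_ICOS, and 1, Eif3g, fell with CD3_CD28_ICOS. The rises were 78.6%, 85.7% and 71.4% of the eIF3 genes, against 43.6%, 36.1% and 35.6% of all tested genes. Under the median of ratios 7 rose with CD3, where 36.8% of all tested genes rose. The number that fell with CD3_CD28_ICOS was 4 under either other scaling or without CD3_CD28_ICOS replicate 1. Under quantile normalization and the median of ratios, 35.5% and 32.3% of all tested genes fell there. Eif3a, the largest subunit and a part of the core, stood at 544, 534 and 542 CPM in Unstimulated, 905, 888 and 875 in CD3, 1118, 1199 and 1115 in CD3_CD28 and 747, 634 and 690.4 in CD3_CD28_ICOS. Eif3c, another core subunit, was at 339, 338 and 355 CPM in Unstimulated, 572, 593 and 549 in CD3, 821, 917 and 865 in CD3_CD28 and 536, 471 and 453 in CD3_CD28_ICOS. For both genes the 4 groups did not overlap and followed 1 order, with CD3_CD28 highest, CD3 next, then CD3_CD28_ICOS and Unstimulated. Eif3c was 2.52-fold higher with CD3_CD28 than in Unstimulated (log2 fold change 1.33 ± 0.08, adjusted p = 3.98e-09), and Eif3a 2.12-fold (1.08 ± 0.07, adjusted p = 1.29e-08). From CD3 to CD3_CD28 they rose by 0.60 ± 0.08 and 0.36 ± 0.07, the 2 eIF3 genes called higher there as deposited (14.3%, against 18.7% of all tested genes). That count was 6 without CD3 replicate 1 and 5 without CD3_CD28 replicate 1. It was 7 with the ribosomal RNA gene left out, 9 under quantile normalization and 11 under the median of ratios. In these 3 settings 21.9%, 29.3% and 32.1% of all tested genes rose.

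Eif3b and Eif3l, in contrast, were highest with CD3. Eif3l, a peripheral subunit, was at 166, 169 and 157 CPM in Unstimulated, 307, 311 and 306 in CD3, 211, 228 and 229 in CD3_CD28 and 255, 202 and 200.5 in CD3_CD28_ICOS. Its CD3 libraries were above all others, at 1.87-fold over Unstimulated (log2 fold change 0.91 ± 0.09), and CD3_CD28 was lower than CD3 by 0.47 ± 0.09. Eif3b, a core subunit, was at 256, 263 and 273 CPM in Unstimulated, 407, 380.5 and 394 in CD3, 255, 262 and 309 in CD3_CD28 and 285, 163 and 209.8 in CD3_CD28_ICOS. It rose with CD3 by 0.58 ± 0.15 and did not pass the test with CD3_CD28 (adjusted p = 0.743) or with CD3_CD28_ICOS (adjusted p = 0.104), where replicate 1 was at 285 CPM and replicate 2 at 163.

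Eif3e, Eif3f and Eif3h rose by 0.35 ± 0.09, 0.28 ± 0.07 and 0.29 ± 0.09 with CD3. With CD3_CD28 they rose by 0.33 ± 0.09, 0.44 ± 0.07 and 0.40 ± 0.09, and with CD3_CD28_ICOS by 0.33 ± 0.09, 0.45 ± 0.07 and 0.37 ± 0.09. Their 3 rises with CD3 did not pass the test under the median of ratios. Eif3m rose by 0.69 ± 0.09, 0.79 ± 0.09 and 0.60 ± 0.09, from 32.7, 32.6 and 35.2 CPM in Unstimulated to 52.0, 53.3 and 48.5 in CD3_CD28_ICOS, the lowest of the stimulated groups by mean. Eif3d and Eif3i, of which Eif3i sits beside Eif3b in the complex, rose by 0.57 ± 0.07 and 0.60 ± 0.08 with CD3, by 0.74 ± 0.07 and 0.79 ± 0.08 with CD3_CD28, and by 0.25 ± 0.07 and 0.37 ± 0.08 with CD3_CD28_ICOS, where they were lower than with CD3_CD28 by 0.49 ± 0.07 and 0.42 ± 0.08. The rise of Eif3d with CD3_CD28_ICOS did not pass the test under quantile normalization (adjusted p = 0.0538) or the median of ratios (adjusted p = 0.121). Eif3k, a peripheral subunit, was not called with CD3 (0.17 ± 0.08) or with CD3_CD28 (0.01 ± 0.08). It was called higher with CD3_CD28_ICOS, its highest group, at a mean of 246 CPM against 206 in Unstimulated. Eif3j1 and Eif3j2, near-identical copies of the loosely bound j subunit, were below their CD3_CD28 level with CD3_CD28_ICOS, by 0.56 ± 0.11 and 0.66 ± 0.10. Eif3g was at 124, 133 and 144 CPM in Unstimulated and 126, 96.9 and 107 in CD3_CD28_ICOS, which overlapped, and its fall (0.28 ± 0.10, adjusted p = 0.0205) was lost without Unstimulated replicate 3 (0.0769) and without CD3_CD28_ICOS replicate 2 (0.0979) or 3 (0.0585).

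**Figure D3:**
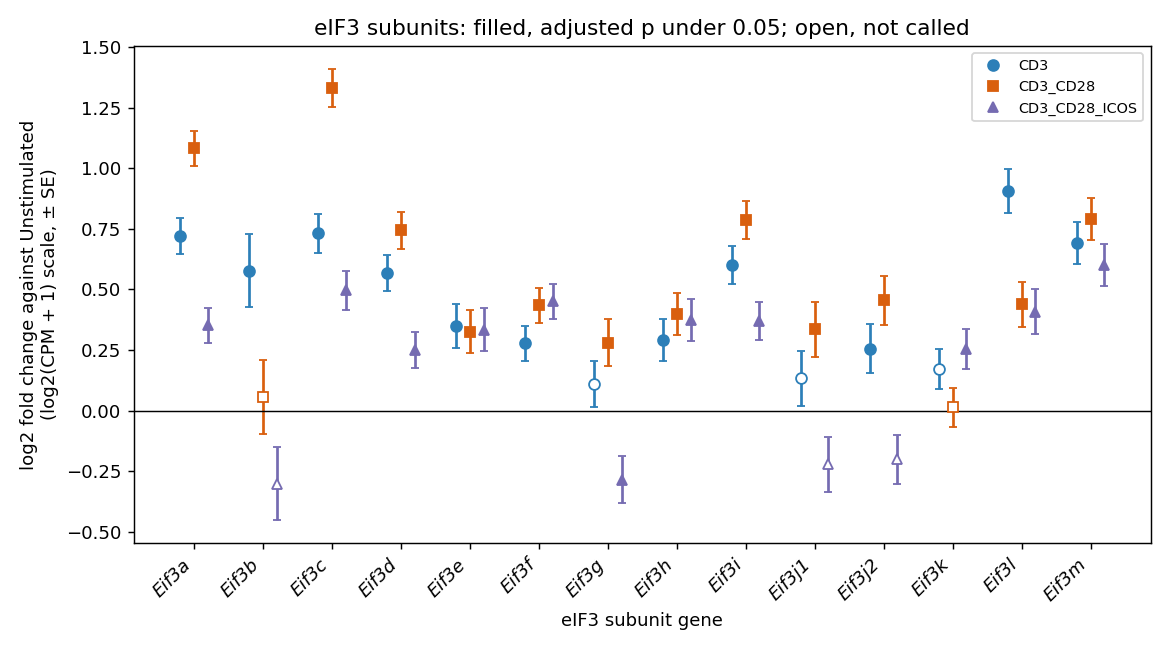
Log2 fold change against Unstimulated (vertical axis, log2(CPM + 1) scale, bars are limma's SE) of the 14 eIF3 genes (horizontal axis) for CD3 (circles), CD3_CD28 (squares) and CD3_CD28_ICOS (triangles); filled symbols passed limma's test. Eif3c and Eif3a stand out with CD3_CD28 at 1.33 and 1.08, and Eif3l with CD3 at 0.91.

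Of the 10 eIF4 genes, 6 rose and 2 fell with CD3, where 43.6% of all tested genes rose and 26.3% fell. With CD3_CD28, 6 rose and 3 fell, against 36.1% and 39.1%. With CD3_CD28_ICOS, 4 rose and 3 fell (40% and 30%), near the 35.6% and 23.7% of all tested genes. Eif4e encodes the protein that binds the messenger RNA cap. It stood at 37.8, 40.9 and 34.1 CPM in Unstimulated, 72.3, 65.5 and 61.6 in CD3, 49.0, 61.2 and 64.7 in CD3_CD28 and 43.5, 29.4 and 34.7 in CD3_CD28_ICOS. The ICOS libraries overlapped the unstimulated ones (-0.08 ± 0.14, adjusted p = 0.641), and the other stimulated libraries were above both groups. Eif4e rose 1.75-fold with CD3 (log2 fold change 0.81 ± 0.14, adjusted p = 0.00017) and 1.53-fold with CD3_CD28, and was lower with CD3_CD28_ICOS than with CD3_CD28 by 0.69 ± 0.14. Its paralogue Eif4e3 rose with each stimulation, by 0.80 ± 0.13, 1.15 ± 0.13 and 0.75 ± 0.13, from 25.6, 23.7 and 26.7 CPM in Unstimulated to 58.7, 53.9 and 59.6 in CD3_CD28. Eif4e2, whose product 4EHP binds caps without recruiting eIF4G, rose by 0.44 ± 0.08 with CD3 and 0.44 ± 0.08 with CD3_CD28_ICOS. It was also called higher with CD3_CD28, at a mean of 104 CPM against 88.0 in Unstimulated. The helicase cofactors also rose. Eif4h was at 204, 213 and 187 CPM in Unstimulated, 405, 403 and 399.9 in CD3, 318, 342 and 341 in CD3_CD28 and 382, 356 and 354 in CD3_CD28_ICOS, with all stimulated libraries well above the unstimulated ones and rises of 1.00 ± 0.07, 0.73 ± 0.07 and 0.85 ± 0.07. Eif4b, the more abundant cofactor per length, rose by 0.62 ± 0.09, 0.53 ± 0.09 and 0.32 ± 0.09.

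The scaffold genes went in other directions. Eif4g2, which encodes DAP5, a scaffold that lacks the eIF4E-binding site, was at 1295, 1398 and 1458 CPM in Unstimulated, 868, 835 and 814 in CD3, 701, 720.4 and 829 in CD3_CD28 and 958, 598 and 768 in CD3_CD28_ICOS. All 9 stimulated libraries were below all unstimulated ones, and the gene fell by 0.72 ± 0.13, 0.88 ± 0.13 and 0.86 ± 0.13 on the log2 scale (adjusted p at most 0.000269, limma). Eif4g3 was at 224, 229 and 236 CPM in Unstimulated, 211, 199.7 and 239 in CD3, 114, 103 and 144 in CD3_CD28 and 254, 205 and 271 in CD3_CD28_ICOS. It was low in CD3_CD28 alone, where it fell by 0.94 ± 0.13 against Unstimulated, and the other 3 groups overlapped. Eif4g1, the main scaffold, was at 549, 567 and 582 CPM in Unstimulated and 661, 644 and 656 in CD3 (0.21 ± 0.15, adjusted p = 0.244). With CD3_CD28 it was at 398, 336 and 478 CPM, below CD3 by 0.71 ± 0.15 (adjusted p = 0.00155), and with CD3_CD28_ICOS at 548, 332 and 449, where replicate 2 was lowest. Its fall with CD3_CD28 against Unstimulated (0.50 ± 0.15, adjusted p = 0.0102) was lost without CD3_CD28 replicate 2 (0.0526) and under quantile normalization (0.0794).

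The genes of proteins that bind and restrain eIF4E moved apart from each other. Eif4ebp2, a 4E-binding protein, was at 665, 649 and 582 CPM in Unstimulated, 393, 375 and 369.7 in CD3, 208, 222 and 242 in CD3_CD28 and 477, 476 and 503 in CD3_CD28_ICOS. The 4 groups did not overlap. It fell by 0.73 ± 0.08 with CD3, 1.49 ± 0.08 with CD3_CD28 and 0.38 ± 0.08 with CD3_CD28_ICOS, and limma's adjusted p was at most 0.00111. Eif4ebp1, its paralogue outside the rule, went the other way, with 4.22, 4.08 and 5.47 CPM in Unstimulated, 36.9, 44.5 and 32.0 in CD3, 96.5, 111 and 94.8 in CD3_CD28 and 13.9, 34.6 and 15.8 in CD3_CD28_ICOS. It rose by 2.79 ± 0.26, 4.19 ± 0.26 and 1.90 ± 0.26 on the log2(CPM + 1) scale, where the added 1 makes the change of so low a gene look smaller. Eif4ebp1 passed the filter only through stimulated libraries, where it was high, so its rises are only a description. Eif4enif1, which encodes the eIF4E transporter 4E-T, rose 2.60-fold with CD3, from 87.8, 89.1 and 93.4 CPM in Unstimulated to 238, 237 and 232. It was at 116, 115 and 129 CPM in CD3_CD28 and 194, 146 and 167 in CD3_CD28_ICOS, and the 4 groups did not overlap.

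**Figure D4:**
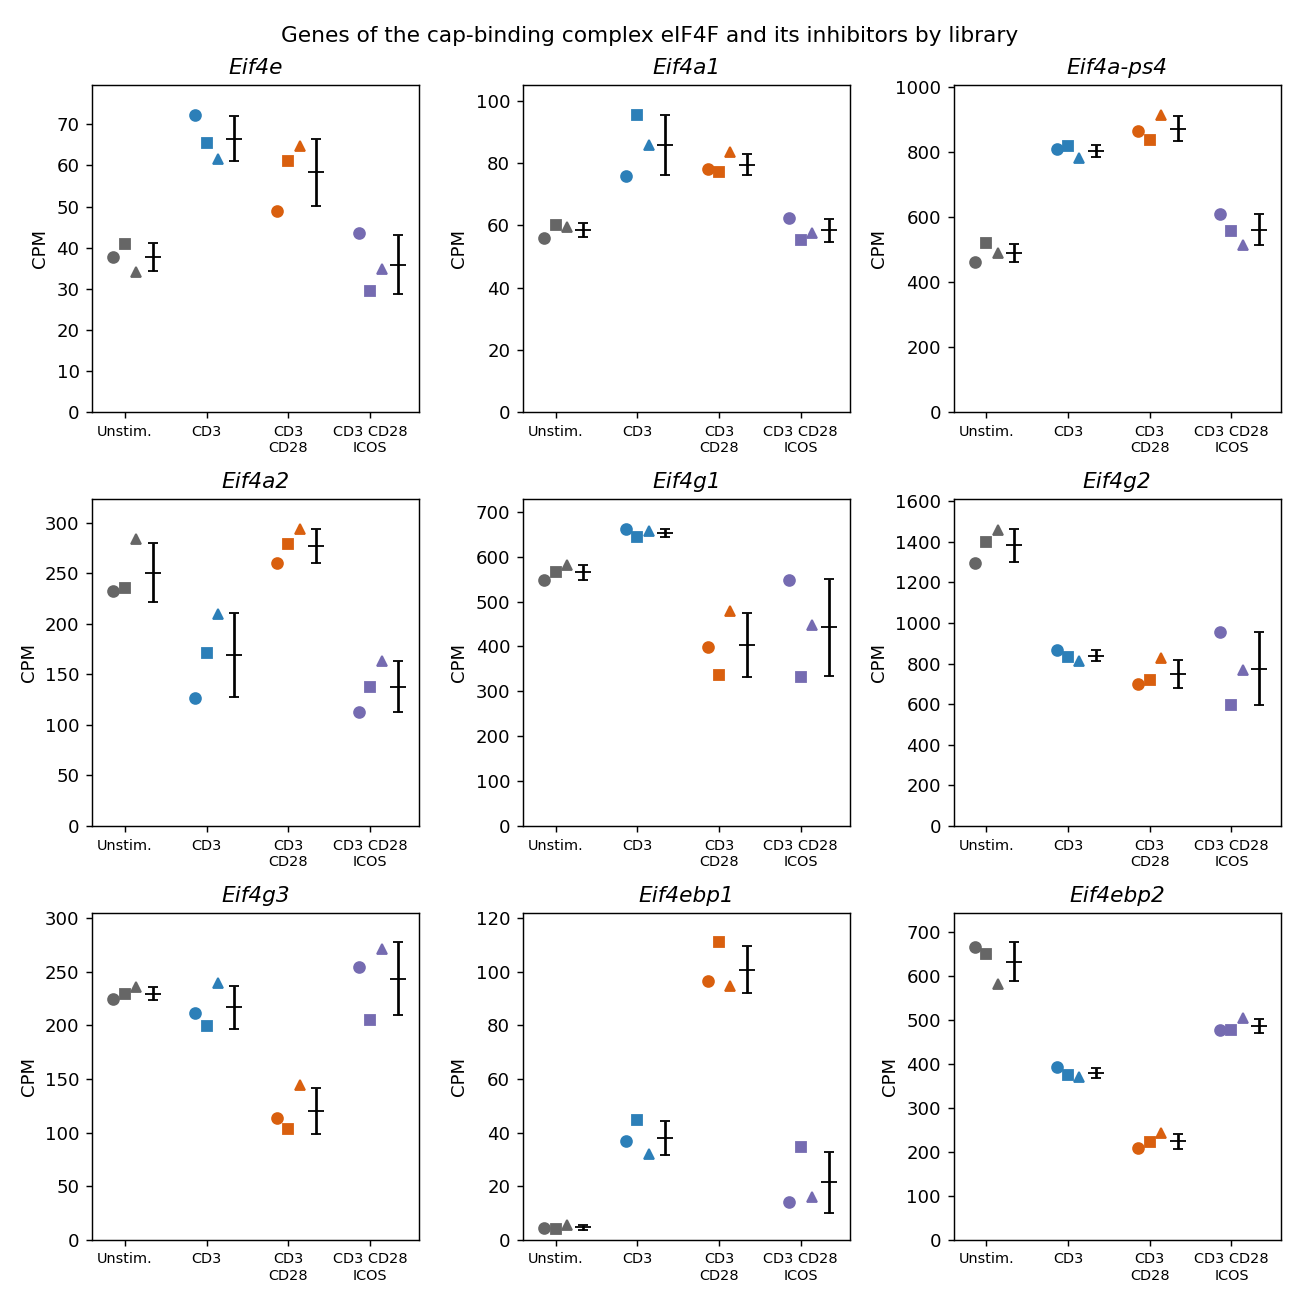
CPM (vertical axes, from 0) of 9 genes of eIF4F and its inhibitors in the 4 groups (horizontal axis); circles, squares and triangles are replicates 1, 2 and 3, and the black bar is the mean ± SD. Eif4g2 and Eif4ebp2 are lower in every stimulated library than in any unstimulated one, Eif4ebp1 is higher, and Eif4e, Eif4a1 and Eif4a-ps4 are higher in CD3 and CD3_CD28.

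The helicase eIF4A needs its sequences, because most reads given to it went to a retrocopy. Eif4a-ps4, a processed pseudogene at chr1:60703932-60705149 on the plus strand (mm10, GENCODE M21), has 1218 bases, of which 1 differs from the coding sequence of Eif4a1 at chr11:69666936-69672423 on the minus strand. The longest run without a difference is 684 bases. Eif4a2, at chr16:23107444-23114136 on the plus strand, differs from Eif4a1 at 261 of 1216 aligned coding bases. The windows of 90 bases that start at codon 156 of Eif4a1 hold the single difference, were chosen among those that do as the one nearest to the mean rate of 19.3 differences of Eif4a2 per window, and are shown 5′ to 3′ with each base that differs from Eif4a1 in capitals.
Eif4a1: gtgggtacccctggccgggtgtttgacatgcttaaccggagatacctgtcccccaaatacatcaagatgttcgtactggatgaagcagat
Eif4a-ps4: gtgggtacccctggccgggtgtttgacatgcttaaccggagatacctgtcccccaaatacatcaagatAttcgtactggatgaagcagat
Eif4a2: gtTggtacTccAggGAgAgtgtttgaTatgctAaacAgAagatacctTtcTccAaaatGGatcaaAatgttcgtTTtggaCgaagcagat
Eif4a2 has 19 differences in this window. Reads from Eif4a1 and Eif4a-ps4 can thus hardly be separated, the counting tool is not given in the sources used here, and the split of reads between these genes is uncertain.

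Eif4a1 itself stood at 55.8, 60.0 and 59.6 CPM in Unstimulated, 76.0, 95.5 and 85.8 in CD3, 78.0, 77.1 and 83.4 in CD3_CD28 and 62.5, 55.2 and 57.5 in CD3_CD28_ICOS. Eif4a-ps4 was at 463, 519.7 and 489, 811, 820.2 and 784, 865, 839 and 916 and 611, 559 and 516 CPM in the same order of groups. For both genes CD3 and CD3_CD28 were above Unstimulated, by 0.54 ± 0.09 and 0.44 ± 0.09 for Eif4a1 and by 0.71 ± 0.08 and 0.83 ± 0.08 for the retrocopy. Eif4a2, the more distant paralogue, was at 233, 236 and 284 CPM in Unstimulated, 127, 171 and 209.7 in CD3, 260.0, 279 and 294 in CD3_CD28 and 113, 137 and 164 in CD3_CD28_ICOS. It fell with CD3 by 0.59 ± 0.17 (adjusted p = 0.00717) and with CD3_CD28_ICOS by 0.87 ± 0.17 (adjusted p = 0.00065), while CD3_CD28 overlapped Unstimulated (0.15 ± 0.17, adjusted p = 0.433). The other retrocopies were smaller in level. Eif3j2 is 99.4% identical to Eif3j1 over 2379 aligned bases, Eif5al3-ps is 97.2% identical to Eif5a, Eif3s6-ps1 and Eif3s6-ps2 are 96.6% and 96.0% identical to Eif3e, and Eif1-ps1 is 95.8% identical to Eif1, so their values are uncertain in the same way. Without the pseudogenes and retrocopies named so by symbol, 34 of 51 members rose and 4 fell with CD3, against 43.6% and 26.3% of all tested genes.

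Outside eIF2, eIF3 and eIF4, Eif1a rose with each stimulation, Eif5a with CD3 and CD3_CD28, and Eif5 fell with CD3 and the ICOS combination. Eif1a, a scanning factor gene on an autosome, was at 42.3, 37.7 and 35.4 CPM in Unstimulated, 89.5, 83.9 and 81.6 in CD3, 88.7, 74.6 and 81.0 in CD3_CD28 and 66.4, 44.2 and 51.7 in CD3_CD28_ICOS, and rose 2.18-fold, 2.09-fold and 1.38-fold. The last rise was 0.47 ± 0.13 on the log2 scale, and 0.31 without CD3_CD28_ICOS replicate 1. Its X-linked paralogue Eif1ax, at 50.1, 59.3 and 52.2 CPM in Unstimulated, was not called in any of the 3 stimulations against Unstimulated (adjusted p from 0.11 to 0.827, limma). Eif5a, the hypusine-bearing factor that relieves stalled ribosomes, was at 298, 298 and 309 CPM in Unstimulated, 560.1, 641 and 597 in CD3, 471, 436 and 583 in CD3_CD28 and 447, 236 and 307 in CD3_CD28_ICOS. It rose by 0.98 ± 0.18 with CD3 and 0.71 ± 0.18 with CD3_CD28, and with CD3_CD28_ICOS it spread from 236 to 447 CPM around the unstimulated level. Its low paralogue Eif5a2 passed the filter through the CD3 and ICOS libraries; it was at 12.5, 13.7 and 12.8 CPM in CD3 and 4.57, 3.76 and 5.84 in CD3_CD28, which is lower by 1.31 ± 0.19. Eif5, which triggers GTP hydrolysis by eIF2, was at 324, 329 and 288 CPM in Unstimulated and 237, 189.5 and 213 in CD3_CD28_ICOS and fell by 0.38 ± 0.09 with CD3 and 0.56 ± 0.09 with CD3_CD28_ICOS. Its fall of 0.24 ± 0.09 with CD3_CD28 (adjusted p = 0.0243) was lost under the median of ratios (adjusted p = 0.144) and under quantile normalization, and without either of Unstimulated replicates 1 and 2 or CD3_CD28 replicates 2 and 3. Eif1, which guards start codon choice, was at 101, 101 and 173 CPM in Unstimulated, where replicate 3 stood apart, 95.2, 112 and 101 in CD3, 164, 172 and 165 in CD3_CD28 and 99.0, 126 and 125 in CD3_CD28_ICOS. CD3_CD28 was above CD3 by 0.69 ± 0.17 (adjusted p = 0.00381). Eif5b, the GTPase of subunit joining, and Eif6, which keeps the ribosomal subunits apart, were lower with CD3_CD28_ICOS than with CD3, by 0.53 ± 0.12 and 0.58 ± 0.10.

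Ratios of paralogues within 1 library hardly depend on the scaling, and 10 such pairs were compared between the 9 stimulated and the 3 unstimulated libraries. The test was an exact permutation test over all 220 splits, two-sided, adjusted over the 10 pairs, and the smallest p it can give is 0.00455. It treats the 9 stimulated libraries as alike, although they come from different stimulations. Libraries of 1 group resemble each other, and the test takes no account of this, so its p-values may be too small. In 4 pairs the ratio changed at an adjusted p of 0.0227. The log2 ratio of Eif1ax to Eif1a was 0.24, 0.64 and 0.55 in the unstimulated libraries and had means of -0.48, -0.56 and -0.19 in CD3, CD3_CD28 and CD3_CD28_ICOS. It was lower in all 9 stimulated libraries, by a mean difference of -0.89 (exact p = 0.00455). Eif2s3x to Eif2s3y went from 2.15, 2.02 and 2.14 to means of 1.51, 1.49 and 1.21, also lower in 9 of 9 libraries (-0.70, exact p = 0.00455). The part of the share of male cells in this ratio was not tested. Eif4a1 to Eif4a2 went from -2.04, -1.96 and -2.23 to means of -0.95, -1.79 and -1.21, higher in 9 of 9 libraries (0.76, exact p = 0.00909). With the reads of Eif4a-ps4 added to Eif4a1 the difference was 0.99 (exact p = 0.00455). Eif4g1 to Eif4g2 went from -1.24, -1.30 and -1.32 to means of -0.36, -0.90 and -0.81, again higher in 9 of 9 (0.60, exact p = 0.00909). The other 6 pairs did not pass the test, at adjusted p from 0.25 to 0.80. In 2 of these the stimulations went opposite ways: the log2 ratio of Eif4g1 to Eif4g3 was 1.29, 1.30 and 1.30 in Unstimulated and had means of 1.59, 1.74 and 0.84 in CD3, CD3_CD28 and CD3_CD28_ICOS, and that of Eif4e to Eif4e2 was -1.13, -1.14 and -1.36 with means of -0.84, -0.84 and -1.73. In both, 6 stimulated libraries were above all unstimulated ones and the 3 ICOS libraries below them, a difference that was not tested. Without any 1 unstimulated library only 55 splits exist, and the calls were lost in part: the adjusted p of each of the other 3 pairs was 0.0606 without Unstimulated replicate 1 or 2. That of Eif4a1 to Eif4a2 was 0.136, 0.136 and 0.121 without Unstimulated replicate 1, 2 and 3, and 0.0606 without any 1 of the CD3 libraries or CD3_CD28_ICOS replicate 1 or 2, while the ratio itself stayed between 0.68 and 0.83.

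**Figure D5:**
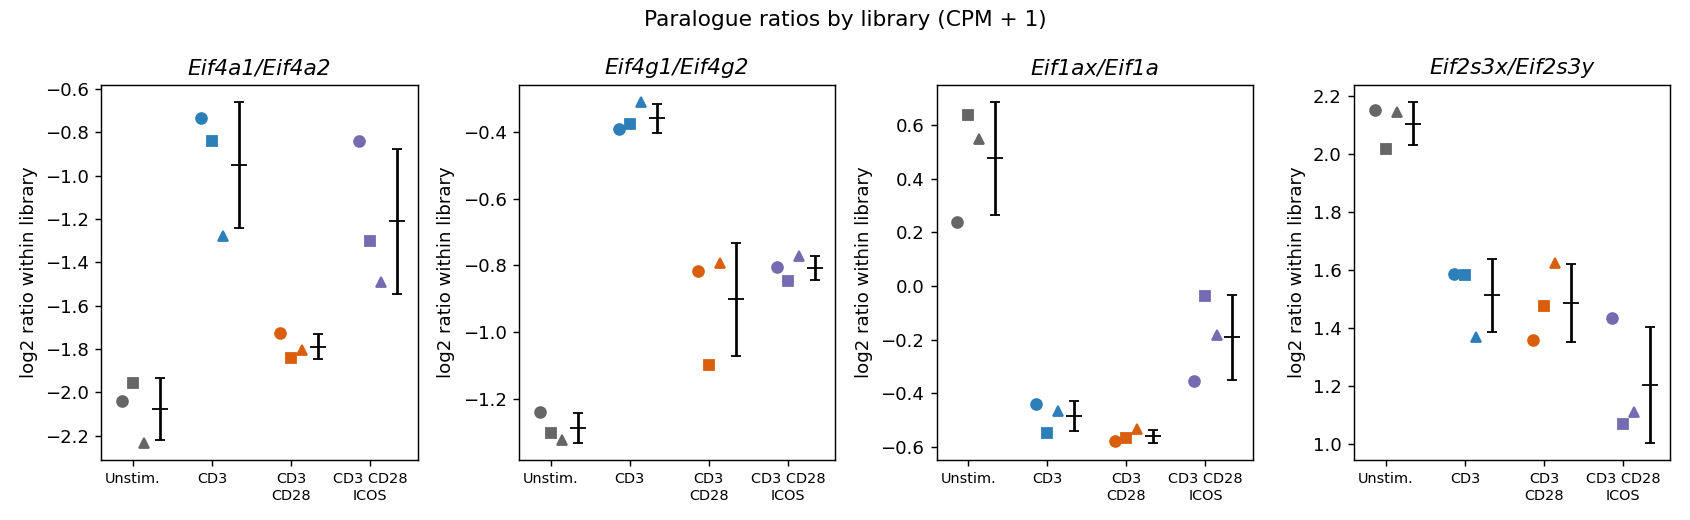
Log2 ratio of CPM + 1 of 4 paralogue pairs within each library (vertical axes, not from 0) in the 4 groups (horizontal axis); circles, squares and triangles are replicates 1, 2 and 3, and the black bar is the mean ± SD. Eif4a1/Eif4a2 and Eif4g1/Eif4g2 lie above their unstimulated values in all 9 stimulated libraries, Eif1ax/Eif1a and Eif2s3x/Eif2s3y below.

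Between CD3 and CD3_CD28, members were called in both directions, and the split depended on the scaling. As deposited, 10 of 56 members rose (17.9%) and 19 fell (33.9%) from CD3 to CD3_CD28. Of all tested genes, 18.7% rose, 45.7% fell and 64.4% did either. The share of members that rose was near that of all tested genes, and the share that fell was smaller. The split was 19 and 14 under quantile normalization, where 29.3% of all tested genes rose and 31.6% fell. It was 25 and 9 under the median of ratios, against 32.1% and 28.6%. With the ribosomal RNA gene left out it was 15 and 18, against 21.9% and 42.7%. Quantile normalization and the median of ratios moved the median of all tested genes by 0.21 and 0.24 on the log2 scale. Of the members called, 7 rose and 9 fell under each of the 23 alternatives run, a count not made over all tested genes. The rises included Eif2s2, Eif3c and Eif3a, given above, and Eif4a2 (0.74 ± 0.17), Eif2ak3 (0.71 ± 0.13) and Eif2a (0.42 ± 0.10). The falls included Eif4enif1 (0.97 ± 0.10), Eif4g3 (0.85 ± 0.13), Eif4ebp2 (0.76 ± 0.08) and Eif1ad (0.94 ± 0.16), whose product has an eIF1A-like domain. Eif5a2 also fell, but it passed the filter only through CD3 and CD3_CD28_ICOS libraries, so its fall is only a description. Eif4a3, the helicase of the exon junction complex, went from 52.5, 56.2 and 55.2 CPM in CD3 to 30.6, 31.8 and 38.4 in CD3_CD28, without overlap.

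The soluble ICOS combination was below CD3_CD28 for most called members. There, 10 of 56 were higher and 25 lower, where 38.5% of all tested genes were higher, 24.5% lower and 63.0% either. By complex, 3 of 4 eIF2 genes, 2 of 5 eIF2B, 7 of 14 eIF3 and 4 of 10 eIF4 were lower, with 11 of eIF3 under the median of ratios. The median log2 difference was -0.22 over members and 0.13 over all tested genes. Eif2s2 (-1.02 ± 0.08), Eif4a2 (-1.02 ± 0.17), Eif2b3 (-0.87 ± 0.13), Eif3c (-0.83 ± 0.08) and Eif3a (-0.73 ± 0.07) were among those lower. Higher were Eif4ebp2 (1.11 ± 0.08), Eif4g3 (1.01 ± 0.13), Eif5a2 (0.90 ± 0.19), Eif2ak1 (0.74 ± 0.09) and Eif4enif1 (0.48 ± 0.10), and these 5 were higher under each of the 23 alternatives. Eif5a2 passed the filter only through CD3 and CD3_CD28_ICOS libraries, where it was high, so its difference from CD3_CD28 is only a description. The split was 5 and 32 under quantile normalization, where 32.8% of all tested genes were higher and 31.7% lower. It was 5 and 38 under the median of ratios, against 28.3% and 36.7%. With the ribosomal RNA gene left out it was 6 and 30, against 36.1% and 28.2%. The count of higher members was 5 without CD3_CD28 replicate 1 and 6 without CD3_CD28_ICOS replicate 3.

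Against CD3 alone, 4 members were higher and 32 lower in the ICOS group, where 18.9% of all tested genes were higher, 28.7% lower and 47.7% either. By complex, 3 of 4 eIF2 genes, 3 of 5 eIF2B, 9 of 14 eIF3 and 4 of 10 eIF4 were lower. The higher ones with each of the 23 alternatives were Eif2ak3 (0.51 ± 0.13) and Eif4ebp2 (0.36 ± 0.08); the count was 2 without CD3 replicate 2, CD3 replicate 3 or CD3_CD28_ICOS replicate 3. Eif5a (-0.91 ± 0.18), Eif4e (-0.89 ± 0.14), Eif3b (-0.88 ± 0.15) and Eif2s1 (-0.83 ± 0.12) were among the lower members. In an F test over the 9 stimulated libraries, 46 of the 56 members differed among the 3 stimulations, beside 80.7% of all tested genes. By complex these were 3 of 4 eIF2 genes, 4 of 5 eIF2B, 9 of 14 eIF3 and 8 of 10 eIF4. The format of anti-CD3 and the presence of anti-ICOS cannot be told apart here.

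Other genes of translation, 37 listed by role with 35 tested, gave 15 higher and 5 lower with CD3, 13 and 9 with CD3_CD28, and 8 and 10 with CD3_CD28_ICOS against Unstimulated. The higher shares were 42.9%, 37.1% and 22.9% of the list, where 43.6%, 36.1% and 35.6% of all tested genes rose, so with CD3 and CD3_CD28 the list's share was near the background. The lower shares were 14.3%, 25.7% and 28.6%, against 26.3%, 39.1% and 23.7%. The list gave 5 higher and 10 lower from CD3 to CD3_CD28 (14.3% and 28.6%), against 18.7% and 45.7% of all tested genes. It gave 7 and 12 from CD3_CD28 to CD3_CD28_ICOS (20% and 34.3%), against 38.5% and 24.5%. From CD3 to CD3_CD28_ICOS it gave 5 and 13 (14.3% and 37.1%), against 18.9% and 28.7%. Pdcd4, an inhibitor of eIF4A, was at 576, 537 and 508 CPM in Unstimulated, 221, 205 and 203 in CD3, 197, 238 and 239.9 in CD3_CD28 and 466, 458 and 501 in CD3_CD28_ICOS. It fell by 1.36 ± 0.09 with CD3 and 1.26 ± 0.09 with CD3_CD28, while the ICOS group was not called (-0.19 ± 0.09, adjusted p = 0.0895). Larp1, a binder of messenger RNAs of the translation machinery, went from 284, 278 and 273 CPM in Unstimulated to 523, 535 and 524 in CD3 and 559, 604 and 667 in CD3_CD28, rises of 0.92 ± 0.11 and 1.13 ± 0.11, and was at 382, 270.3 and 299 in CD3_CD28_ICOS. Pabpc1, the poly(A)-binding protein, rose in all 3 stimulations, by 0.72 ± 0.08, 0.62 ± 0.08 and 0.53 ± 0.08. The kinase of elongation factor 2, Eef2k, rose by 1.48 ± 0.16 with CD3 and 1.23 ± 0.16 with CD3_CD28 and was not called with the ICOS combination (0.08 ± 0.16). Of the 7 elongation genes, 5 rose with CD3, 6 with CD3_CD28 and 1 with CD3_CD28_ICOS; Eef2, the translocation factor, rose by 0.48 ± 0.08, 1.00 ± 0.08 and 0.64 ± 0.08.

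Levels between members were compared per kilobase of annotated exon, summed over all transcripts of a gene, so retained introns in the annotation lower some values. In unstimulated cells the value given to Eif4a-ps4, whose reads can hardly be separated from those of Eif4a1, was 403 CPM per kb. Next to it were Eif3h at 184, Eif3f at 180.1 and Eif4b at 167. Eif4e was at 6.26 CPM per kb, below Eif4g1 at 77.5 and Eif4ebp2 at 109. Within eIF3 the levels ran from 4.73 CPM per kb for Eif3j1 to 184 for Eif3h. With CD3_CD28, Eif3c reached 247 CPM per kb, Eif3f 244 and Eif3h 243, so these 3 subunits were at like levels there, while Eif3c had been at 98.0 in unstimulated cells.

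The promoters of the members were searched for the E-box CACGTG, the letters bound by MYC and MAX, and for 2 other motifs. RefSeq promoters (GRCm38.p6, 250 bases before to 50 after each start) were matched for 42 of the 51 protein-coding members. CACGTG, which reads the same on both strands, was in the promoters of 10 of the 42 genes (23.8%), beside 8.09% of all genes of the table and 12.5% of the protein-coding genes that passed the expression filter; none of these shares was tested. CCGGAAG, the core bound by ETS factors, was in 16 of 42 (38.1%) on either strand, beside 9.93% and 23.8%. TGATGCAA, a composite site of ATF4, was in 0 of 42, beside 1.03% and 0.737%. The genes with CACGTG were Eif1b, Eif3a, Eif3f, Eif3k, Eif4a1, Eif4e, Eif4g1, Eif4h, Eif5a and Eif5a2. Windows of 50 bases around it, each outside annotated exons, are shown for 5 of them, which include genes that rose with CD3 and genes that did not, on the strand of the gene with CACGTG in capitals.
Eif3f, chr7:108934325-108934374, plus strand: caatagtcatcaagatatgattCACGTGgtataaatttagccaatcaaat
Eif3k, chr7:28981905-28981954, minus strand: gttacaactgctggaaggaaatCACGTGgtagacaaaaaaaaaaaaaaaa
Eif4a1, chr11:69672585-69672634, minus strand: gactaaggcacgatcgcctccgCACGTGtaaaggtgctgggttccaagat
Eif4g1, chr16:20672651-20672700, plus strand: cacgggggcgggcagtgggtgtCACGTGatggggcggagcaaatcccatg
Eif5a, chr11:69921433-69921482, minus strand: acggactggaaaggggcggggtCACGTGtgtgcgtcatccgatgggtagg
Of the 10 genes with CACGTG, 7 rose and 0 fell with CD3, 6 rose and 2 fell with CD3_CD28, and 4 rose and 1 fell with CD3_CD28_ICOS. Of the other 32 genes with a promoter, 19 rose and 3 fell, 20 rose and 6 fell, and 16 rose and 4 fell. The shares of all tested genes that rose and fell were 43.6% and 26.3%, 36.1% and 39.1%, and 35.6% and 23.7%. The median log2 fold change of the genes with CACGTG and of the others was 0.52 and 0.40 with CD3, 0.44 and 0.32 with CD3_CD28, and 0.08 and 0.16 with CD3_CD28_ICOS, where the order turned. A match of these letters is a description and not a measured binding site.

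The authors' deposited table of their own 6 comparisons called fewer members at a false discovery rate under 0.05. With CD3 the authors' deposited table had 24 of 56 higher and 4 lower, where 26.0% of all tested genes with a value there were higher and 14.0% lower. The authors' deposited table had 20 and 5 with CD3_CD28, against 23.6% and 24.3%, and with CD3_CD28_ICOS 15 and 4, against 19.4% and 8.87%. Between stimulations, the authors' deposited table had 6 higher and 8 lower for CD3_CD28 against CD3 (8.37% and 18.8% of all tested genes). In the authors' deposited table there were 4 and 11 for CD3_CD28_ICOS against CD3_CD28 (19.3% and 11.1%), and 1 and 11 for CD3_CD28_ICOS against CD3 (7.03% and 7.74%). All of these calls of members in the authors' deposited table were also made with limma in the same direction.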

How the data were processed

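Paired-end RNA-seq of 12 libraries of mouse CD4+ T cells was analysed, 3 in each of 4 groups taken from the labels. The authors' deposited table holds normalized values that sum to 1e+06 per library apart from an offset of 1e-04 in every cell, and they were read as CPM. Per the submitters' processing notes, Partek (version 10), DESeq2 and mm10 were used; which aligner, counter, annotation and strand setting were used is not given in the sources used here. The authors' deposited p-values and false discovery rates (FDR), and their deposited fold changes, were used only where named. The deposited CPM were turned into log2(CPM + 1), since the authors deposited no log2 values for single libraries. Whole reads could not be recovered: 75.6 to 80.0% of values up to 1.2 CPM fell on whole steps (tolerance 0.02), so no count test was run, and CPM carries no correction for gene length.

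All tests across genes used limma 3.58.1 in R 4.3.3 (trend, robust, two-sided, 1 mean per group over all 12 libraries), with Benjamini-Hochberg adjustment over 9826 genes and a threshold of 0.05; adjusted p-values without another name are from it, and ± after a log2 fold change is its SE. The fit was tested on simulated data with equal depths, the same dispersion throughout and few changed genes, balanced in direction. These data differ in each of these respects, so the simulation does not show how the fit performs on them. Paralogue ratios used exact permutation tests. Members, translation gene lists, markers and motifs were chosen with earlier results of these data known; any member and any listed gene could be named. Alternatives were other pseudocounts (0.1 and 5), filters (1 CPM or none), scalings and variance models, a replicate block, and leaving out libraries. Counts with Eif4a-ps4 added to Eif4a1 and counts without retrocopies were added after the data were seen. The labels do not say whether libraries with the same replicate number are paired, and the main fit did not pair them. Locations and gene types are from GENCODE M21 (mm10).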

Additional observations from a re-analysis of the deposited data

How the results depend on the processing

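Of the 223 calls of members in the 6 comparisons, 161 were made under each of the 23 alternatives and 173 with each single library left out; the numbers kept were 189 under the median of ratios, 195 under quantile normalization, 215 without the ribosomal RNA gene, 211 with no filter and at least 222 with the other pseudocounts. The cause of the changes was not tested. Kept calls, and calls with libraries left out, were not counted over all tested genes. The counts therefore do not show whether members were more or less stable than other genes. Under quantile normalization 7 members were lower with CD3 and 17 with CD3_CD28_ICOS against Unstimulated, beside 38.3% and 35.5% of all tested genes. From CD3 to CD3_CD28, 19 were higher, beside 29.3%, and from CD3_CD28 to CD3_CD28_ICOS 5 were higher, beside 32.8%. Of the other translation genes, 10 were lower with CD3 and 9 higher in CD3_CD28 than in CD3. Under the median of ratios 18 members were lower with CD3_CD28_ICOS against Unstimulated, beside 32.3% of all tested genes. From CD3 to CD3_CD28, 25 were higher and 9 lower, beside 32.1% and 28.6%. In CD3_CD28_ICOS, 5 were higher and 38 lower than in CD3_CD28, beside 28.3% and 36.7%. The other translation genes then had 11 lower with CD3, beside 34.3% of all tested genes. They had 14 higher and 3 lower in CD3_CD28 than in CD3, and 20 lower in CD3_CD28_ICOS than in CD3_CD28. Eif4e2 changed direction there, at 0.05558 (CD3_CD28 against CD3) and -0.006748 (CD3_CD28_ICOS against CD3_CD28).

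The median of ratios moved the summed levels with CD3 to 448.8 (eIF2), 230.1 (eIF2B), 4068 (eIF3) and 3419 CPM (eIF4), with CD3_CD28 to 569.2, 255.9, 5426 and 3552 CPM, and that of eIF3 with CD3_CD28_ICOS to 3648 CPM. Without the ribosomal RNA gene the sums were 324.1 CPM for eIF2 in Unstimulated, 256.0 and 248.7 CPM for eIF2B with CD3 and CD3_CD28, 5272 CPM for eIF3 with CD3_CD28 and 3804 CPM for eIF4 with CD3, and 6 members were higher in CD3_CD28_ICOS than in CD3_CD28. That last count was 5 without Unstimulated replicate 3 and CD3_CD28 replicate 1 together, when 8 other translation genes were higher in CD3_CD28 than in CD3, and 5 with only the 6 libraries compared, when 5 members were lower with CD3_CD28_ICOS against Unstimulated. With no filter 2 members were higher in CD3_CD28_ICOS than in CD3.

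Leaving out 1 library at a time, members lower with CD3_CD28_ICOS against Unstimulated numbered 5 to 17, members higher in CD3_CD28_ICOS than in CD3_CD28 5 to 10, and members higher in CD3_CD28_ICOS than in CD3 2 to 5. The other translation genes lower with CD3 numbered 2 to 5, those higher in CD3_CD28 than in CD3 5 to 6, and those higher in CD3_CD28_ICOS than in CD3 3 to 6. The log2 ratio changes ran from 0.6827 to 0.8262 for Eif4a1/Eif4a2, 0.5507 to 0.6491 for Eif4g1/Eif4g2, -1.007 to -0.8064 for Eif1ax/Eif1a, -0.7453 to -0.6609 for Eif2s3x/Eif2s3y, -0.04298 to 0.4754 for Eif1/Eif1b, -0.181 to -0.03049 for Eif3j1/Eif3j2 and -0.00465 to 0.1643 for Eif4e/Eif4e2. Libraries with the same replicate number had deviations that correlated at -0.0998 to 0.408, over 0.1 in 6 of 18 pairs, so the replicate block was only an alternative: it kept 214 of the 223 calls, and 36 members were then higher with CD3.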
